A study of Mus musculus with 9 samples.

Results

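Long intergenic noncoding RNAs (lincRNAs) are transcripts from between the protein-coding genes that are mostly spliced and polyadenylated but carry no long reading frame. Here they were followed in M-MDSCs, monocytic myeloid-derived suppressor cells, a class of immature myeloid cell that builds up in tumours and restrains T cells. A lincRNA entered the set when the deposited annotation called it lincRNA, when it lay outside chromosomes X and Y, and when its mean reached 1 FPKM (fragments per kilobase of gene length, scaled to library size) in at least 1 of the 3 genotypes. The rule, which left out Gm42031 by name, kept 206 lincRNAs, 4.19% of the 4914 on the other chromosomes. Of these 4914, 2941 had no count in any library. Because the values themselves chose the set, its levels are given as a description.

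All 3 groups bore tumours grown from MC38 cells, which come from a mouse colon carcinoma, and the M-MDSCs were sorted from the tumours. The 3 genotypes were WT, LILRB4+/+ and LILRB4+/+ SCG2-/- (also called the knockout), with 3 libraries each. LILRB4 is an inhibitory receptor of myeloid cells, and SCG2 is secretogranin 2, a protein of secretory granules. Poly-A selected, strand-marked RNA libraries were sequenced. The labels do not say what kind of allele LILRB4+/+ is, which promoter drives it, which markers the sort used, or the strain, age and animal behind each library, so the 3 libraries of a group may differ by technical spread alone.

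Some lincRNAs act as RNAs, for example as scaffolds of nuclear bodies, while others are the primary transcripts from which microRNAs or small nucleolar RNAs (snoRNAs) are cut. In macrophages and monocytes Mir155hg, the precursor of the microRNA miR-155, is switched on by inflammatory signals that act through NF-kB. MicroRNAs bind messenger RNAs mainly through their seed, bases 2 to 8, and lower their output. Polyadenylated RNA was measured here, so the values are those of the host transcripts and not of the mature small RNAs.

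Recovered counts summed to between 15004944 and 28070495 per library. The 206 lincRNAs held from 0.189% (95% Wilson interval 0.187 to 0.191%) of them in WT library 2 to 0.323% (0.320 to 0.326%) in LILRB4+/+ SCG2-/- library 3, intervals that cover counting error alone. Scg2 had 1 count in each of 2 libraries, 1 WT and 1 LILRB4+/+, and 0 in the other 7, so its level cannot check the knockout label. Lilrb4a is a mouse gene of the LILRB4 family. It was at 138, 47.7 and 74.0 FPKM in WT, 274, 154 and 160 in LILRB4+/+, and 131, 146 and 157 in the knockout. LILRB4+/+ lay above WT, while the knockout, which also carries LILRB4+/+ in its label, overlapped WT. Among the monocyte markers, Ly6c2 stood at 28.6 to 105 FPKM, Itgam at 18.1 to 79.1 FPKM and Cd14 at 756 to 2688 FPKM. Lyz2 stood at 11.8, 79.1 and 109 FPKM in WT, 11.4, 18.6 and 16.6 in LILRB4+/+, and 849, 342 and 252 in the knockout. Its knockout libraries lay above all the others, and the source of this difference was not tested. All 22 T and NK cell markers were present in each library. Their summed level, in CPM (counts scaled to a common library total), was 1352, 375 and 537 in WT libraries 1, 2 and 3, 2426, 359 and 1919 CPM in LILRB4+/+, and 1306, 2424 and 2416 CPM in LILRB4+/+ SCG2-/-. In bulk RNA, fewer cells of a type and less RNA per cell cannot be told apart.

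Most of the set was weakly expressed. A mean over the 9 libraries of 10 FPKM or more was reached by 22 lincRNAs, 35 lay between 3 and 10, 104 between 1 and 3, and 45 below 1. The 10 most abundant held 46.2% of the summed FPKM. The genes were short, with a median exonic length of 1239.5 bases, and the median lincRNA had 47.7 counts per library. In all 3 genotypes 113 reached 1 FPKM, 46 did so in 2 and 47 in 1. Those 93 were picked partly by a difference between genotypes, so their values are given with no test and they enter none of the counts of calls below. Just inside the limit stood 1700096K18Rik (highest genotype mean 1.004 FPKM), Gm13816 (1.014) and 1700048O20Rik (1.015), and just outside it 4833418N02Rik (0.998), Gm35154 (0.992) and Gm7967 (0.989).

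The most abundant lincRNA was Gm26917 at 72.1 ± 36.5 FPKM (SD, n = 9), followed by AW112010 at 65.3 ± 24.6, Malat1 at 58.4 ± 17.9, Gm10076 at 50.4 ± 14.3 and Epb41l4aos at 49.6 ± 21.7. AU020206 (41.4 ± 8.27), Gm42047 (35.2 ± 9.16), Snhg6 (33.3 ± 7.13), 2900097C17Rik (33.2 ± 5.62) and Mir142hg (30.8 ± 16.2) completed the first 10. WT lay below all 6 other libraries for Malat1, AU020206 and 2900097C17Rik and below the 3 LILRB4+/+ SCG2-/- libraries for Mir142hg, and the other pairs of genotypes overlapped for all 10. Neighbours in this order, such as Gm26917 and AW112010, did not differ by more than the spread between libraries. Among the 22 at 10 FPKM or more, the highest library exceeded the lowest by 1.59-fold for 2900097C17Rik, the mouse Norad gene, and by 9.21-fold for Mir155hg.

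**Figure D1:**
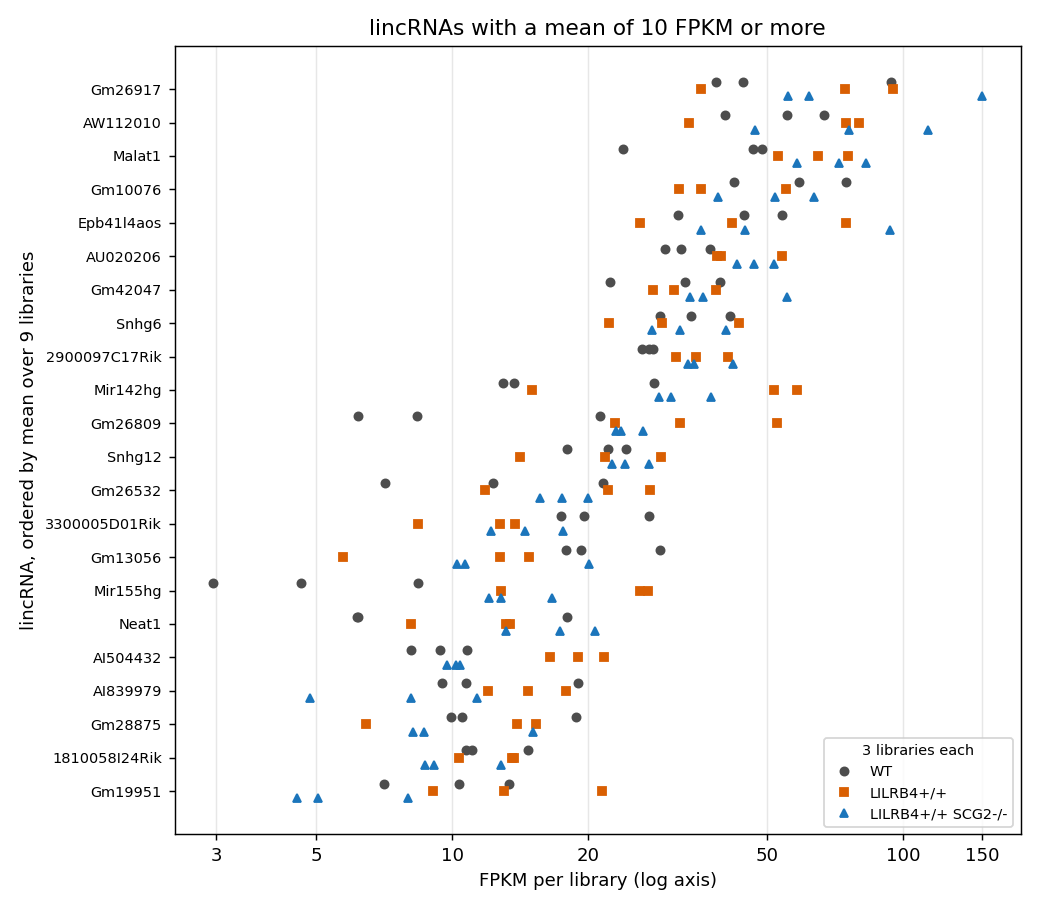
FPKM of the 22 lincRNAs with a mean of 10 FPKM or more (log axis), with each of the 9 libraries as a point and the 3 genotypes by colour and shape. Mir155hg spans 2.95 to 27.2 FPKM, with the WT libraries lowest, while the 9 values of 2900097C17Rik lie between 26.4 and 42.1 FPKM.

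The annotation places the 206 on 19 chromosomes, with positions on GRCm38. A protein-coding gene lay within 10000 bp of 118 of them, and 30 overlapped the body of a coding gene. In 47 pairs the lincRNA and its nearest coding gene pointed away from each other, head to head, and in 23 of these 47 they were within 1000 bp, at a median gap of 168 bp. A single exon made up 28 lincRNAs. Exons of 39 overlapped an exon on the opposite strand, and the setting for strand at counting is not given in the sources used here, so reads of such a lincRNA and its partner cannot be told apart. Not every annotation calls these genes noncoding: of the 133 matched by symbol in RefSeq (GRCm38.p6), 125 were lncRNA, 5 protein-coding (1810058I24Rik, Tmem250-ps, Zfp469, Gm6712 and Gm46430) and 3 pseudogenes (Gm10076, 4632415L05Rik and Gm32618).

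Libraries of 1 genotype differed more from each other for lincRNAs than for coding genes of similar level. At a mean of 1 to 3 FPKM the median SD within a genotype was 0.42 on the log2 scale for the 104 lincRNAs and 0.24 for 2326 coding genes. At 10 to 100 FPKM it was 0.48 for the 22 lincRNAs and 0.21 for 4066 coding genes. The lincRNAs were also shorter and had fewer counts at the same FPKM, with a median of 43.8 against 180 in the first class and 737 against 1686 in the second, and the part of this gap in the spread was not tested.

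MicroRNA host transcripts come first among the roles, since their products are the best understood. Small RNAs lay within 15 of the lincRNAs: 9 contained 15 annotated microRNA genes and 5 contained snoRNAs. Mir155hg (ENSMUSG00000097418, chr16:84703167-84715245, plus strand) carries miR-155 in an exon, with the 5p form at chr16:84714143-84714165. Mir17hg (chr14:115042879-115046727, plus strand) carries a cluster of 6 microRNAs in its exons, and miR-142a lies within Mir142hg (chr11:87755577-87757270, plus strand) but outside its annotated exons, with the 5p form at chr11:87756867-87756887 and the 3p form at chr11:87756903-87756925. The mature forms below are from RefSeq (GRCm38.p6), 5′ to 3′, with the seed in capitals, and show which of the hosted microRNAs share a seed:

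miR-155-5p: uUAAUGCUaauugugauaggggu
miR-142a-5p: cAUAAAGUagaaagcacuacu
miR-142a-3p: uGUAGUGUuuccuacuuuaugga
miR-17-5p: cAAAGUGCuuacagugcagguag
miR-20a-5p: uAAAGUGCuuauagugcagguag
miR-18a-5p: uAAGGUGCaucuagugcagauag
miR-19a-3p: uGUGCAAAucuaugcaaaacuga
miR-19b-3p: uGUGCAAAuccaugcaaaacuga
miR-92a-3p: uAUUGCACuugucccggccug

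The miR-17 and miR-20a forms share 1 seed and the miR-19a and miR-19b forms another, and no other seed among the hosted microRNAs of the set occurred in 2 of them.

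The first comparison set LILRB4+/+ beside WT. AI504432 rose, and it was the only lincRNA called in the test, 1 of the 113 (0.885%), where 0.249% of the 15670 genes tested were called higher (limma on log2(FPKM + 0.5), adjusted p under 0.05 over all genes). AI504432 (ENSMUSG00000056145, chr3:107039504-107054347, plus strand) is a lincRNA of 5569 exonic bases downstream of Kcna3. Its values were 8.13, 10.8 and 9.42 FPKM in WT libraries 1, 2 and 3, 19.1, 21.8 and 16.5 FPKM in LILRB4+/+, and 10.2, 10.4 and 9.75 FPKM in LILRB4+/+ SCG2-/-. The 3 LILRB4+/+ libraries lay above all 6 others. The log2 fold change against WT was 0.98 ± 0.14 (SE), with a limma adjusted p of 0.041, and edgeR on the recovered counts gave 1.003 with an adjusted p of 0.023.

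The call for AI504432 was close to the limit. With 1 library left out, it held without LILRB4+/+ library 2 (limma adjusted p = 0.0477) and was lost without each of the other 8 libraries in turn (limma adjusted p from 0.0642 to 0.17), at log2 fold changes from 0.88 to 1.08. The sum of the neutrophil markers, 11 of 11 found, was also highest in LILRB4+/+. It was 63.5 to 89.4 CPM in WT, 112 to 216 CPM in LILRB4+/+ and 65.6 to 83.7 CPM in LILRB4+/+ SCG2-/-. The part of these markers in the result was not tested. Single genes of the list did not all follow the sum. Retnlg was at 55.3 to 154 FPKM in LILRB4+/+ and 15.2 to 34.1 in WT, and Hdc at 8.76 to 10.5 and 3.35 to 4.86. In LILRB4+/+ library 1, S100a8, S100a9, Ngp and Mmp9 were below every WT library, at 0.438, 0.466, 0.0498 and 3.54 FPKM. Ly6g, the defining neutrophil gene of that list, was at 0 in 7 libraries and at most 0.198 FPKM. With the T and NK marker level as a covariate, the fold change of AI504432 was 1.08 with a limma adjusted p of 0.0332.

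Mir155hg gave the largest fold change of the 113 testable lincRNAs. It stood at 8.39, 4.61 and 2.95 FPKM in WT, at 26.1, 12.8 and 27.2 FPKM in LILRB4+/+, and at 12.1, 16.7 and 12.8 FPKM in LILRB4+/+ SCG2-/-. All LILRB4+/+ libraries exceeded all WT libraries, and library 2 of LILRB4+/+ lay within the range of the knockout. The log2 fold change against WT was 1.99 ± 0.38 (SE). It missed the threshold in limma (adjusted p = 0.0683) and passed in edgeR (2.03, adjusted p = 0.0439). In edgeR 2 of the 113 were called higher (1.77%), Mir155hg and AI504432, against 0.813% of all genes.

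Within WT and LILRB4+/+, some extremes of Mir155hg fell in libraries at the same extreme of the T and NK cell markers, and others did not. Library 2 of LILRB4+/+ was lowest in that genotype for both, at 12.8 FPKM and 359 CPM, and WT library 1 was highest in WT for both, at 8.39 FPKM and 1352 CPM. In WT, Mir155hg was lowest in library 3 (2.95 FPKM, 537 CPM), while library 2 had the fewest markers (4.61 FPKM, 375 CPM). In LILRB4+/+, library 3 was highest in Mir155hg (27.2 FPKM, 1919 CPM) and library 1 in the markers (26.1 FPKM, 2426 CPM). With the marker level as a covariate, the log2 fold change of Mir155hg was 1.62 with a limma adjusted p of 0.0456. The knockout libraries had 1306 to 2424 CPM of these markers and 12.1 to 16.7 FPKM of Mir155hg. Without LILRB4+/+ library 2 the fold change was 2.33 with a limma adjusted p of 0.0384.

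**Figure D2:**
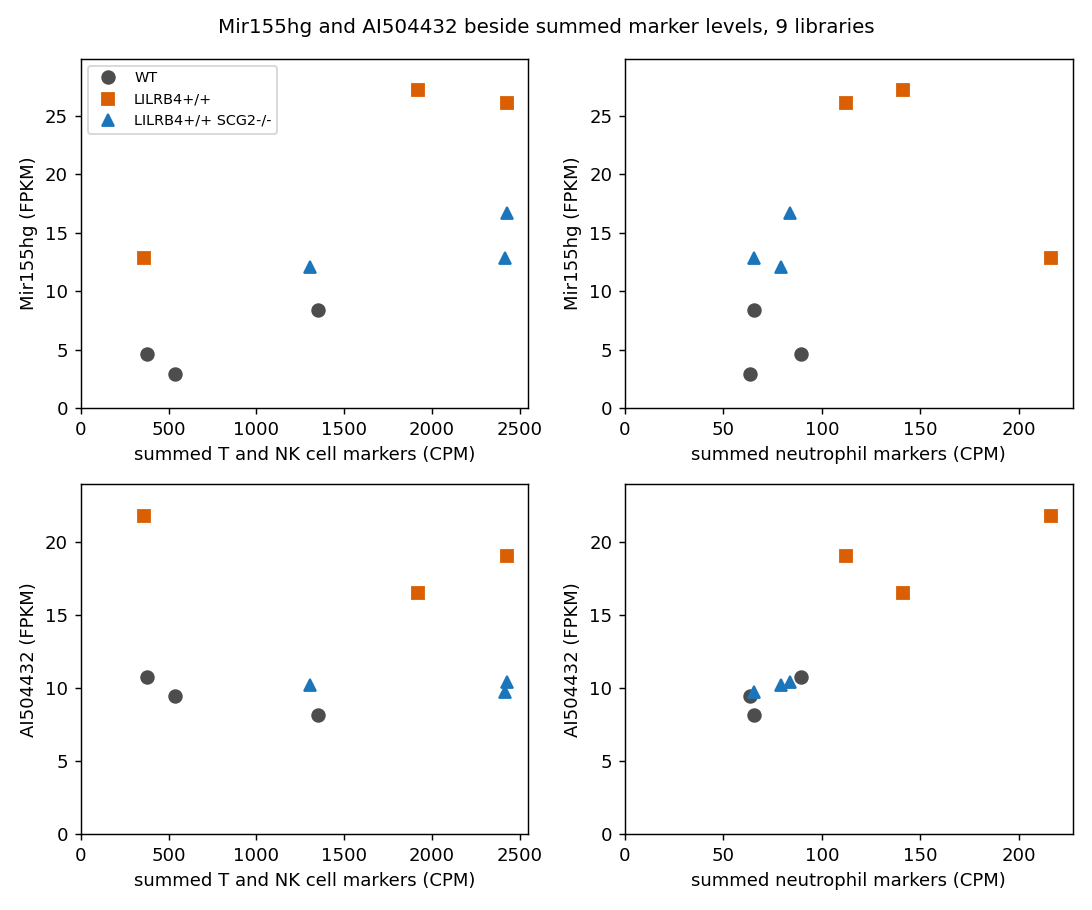
Mir155hg and AI504432 (FPKM, vertical axes) beside the summed T and NK cell markers and the summed neutrophil markers (CPM, horizontal axes) in the 9 libraries, by genotype. Mir155hg is lower in the LILRB4+/+ library with 359 CPM of T and NK markers than in the other 2 of that genotype, and AI504432 is above 16 FPKM only in the 3 LILRB4+/+ libraries, whose neutrophil markers sum to 112 to 216 CPM.

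The other 2 lincRNAs named as microRNA hosts did not pass. Mir142hg, the host of a microRNA found throughout blood cells, was at 28.1, 13.8 and 13.0 FPKM in WT, 51.8, 15.0 and 58.1 FPKM in LILRB4+/+, and 37.6, 30.6 and 28.8 FPKM in the knockout (LILRB4+/+ against WT 1.04 ± 0.50 on the log2 scale, limma adjusted p = 0.316, and 0.53 with the T and NK marker level as a covariate). As for Mir155hg, library 2 of LILRB4+/+ and libraries 2 and 3 of WT were low. Mir17hg, the host of the growth-promoting miR-17 cluster, was at 2.13 ± 1.40, 3.25 ± 1.43 and 3.57 ± 0.651 FPKM (SD, n = 3) in WT, LILRB4+/+ and the knockout, within the spread. Of all 10 genes named as microRNA hosts, 4 were expressed well enough to be tested, and their median log2 fold change was 0.89, beside 0.006 for all genes. None of the 4 passed limma, and Mir155hg passed edgeR. With the T and NK marker level as a covariate the median of the 4 was 0.68, and Mir155hg alone passed limma. Named after their values were seen, AL805899.1, which holds miR-31, was at 2.70, 2.87 and 2.37 FPKM in WT and 0.840, 2.29 and 2.75 in LILRB4+/+, and 4833445I07Rik, which holds miR-191 and miR-425, ranged from 0.928 to 1.56 FPKM over the 9 libraries. WT and LILRB4+/+ overlapped for both.

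Coding genes on either side of miR-155 were followed from lists chosen with earlier results of these data known. Of all 15670 genes tested, 7928 had a positive log2 fold change in LILRB4+/+ against WT. Of 17 messenger RNAs described as miR-155 targets, 14 had a positive and 3 a negative log2 fold change in LILRB4+/+ against WT, with a median of 0.32. None passed limma. Jarid2, a partner of the Polycomb repressor, passed edgeR (0.87, adjusted p = 0.0358), and Inpp5d, a phosphatase that restrains myeloid signalling, was at 17.8 FPKM in WT and 25.6 in LILRB4+/+ (0.49, limma adjusted p = 0.196). Socs1, an inhibitor of cytokine signalling, had 0.45 (limma adjusted p = 0.457). With the T and NK marker level as a covariate, 16 of the 17 targets were positive and 1 negative. Their median was then 0.45, and none passed limma.

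All 15 genes of the NF-kB list, pathway members and genes it turns on, had a positive fold change, with a median of 0.72, beside 0.006 for all genes. None passed limma, where the smallest adjusted p was 0.051, and 3 passed edgeR: the chemokine Cxcl2 (1.77, adjusted p = 0.0242), the cytokine Tnf (1.41, adjusted p = 0.0398) and the regulator Nfkbiz (0.96, adjusted p = 0.0307). Of all genes, edgeR called 0.813% higher. Nfkb1, the gene of an NF-kB subunit, had a log2 fold change of 1.12 (limma adjusted p = 0.0945). T and NK cells also express many genes of this list. With the T and NK marker level as a covariate, all 15 stayed positive with a median of 0.70, and none passed limma (smallest adjusted p = 0.0545). This covariate was chosen after seeing the data, and the part of T and NK cells in these values was not tested.

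Over the 113 lincRNAs at 1 FPKM or more in every genotype, the LILRB4+/+ and WT libraries did not overlap for 15 higher (13.3%, beside 10.6% of all genes tested) and 10 lower (8.85%, beside 12.2%). The median log2 fold change of the 113 was 0.05. At an unadjusted p under 0.05 in limma stood 17 higher (15.0%, beside 9.43% of all genes) and 6 lower (5.31%, beside 8.28%). No lincRNA was called lower by limma, where 0.00638% of all genes were, or by edgeR, where 0.0572% were. DESeq2, which gave an adjusted p for 112 of the 113, called 10 higher (8.93%, beside 4.24% of 14684 genes) and 1 lower (0.893%, beside 1.94%).

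Several lincRNAs resembled the 2 leading ones over the 9 libraries. Nearest to Mir155hg in Pearson correlation of log2(FPKM + 0.5) were Lncpint (0.95), a transcript induced by p53, 4833407H14Rik (0.94) and Gm26809 (0.93). Nearest to AI504432 were A630001O12Rik (0.92), Gm48065 (0.92) and A930007I19Rik (0.86). These are descriptions over 9 libraries that share depth and cell makeup.

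4833407H14Rik was at 3.70, 4.17 and 2.36 FPKM in WT, 9.59, 5.42 and 8.11 FPKM in LILRB4+/+, and 6.22, 6.25 and 5.13 FPKM in the knockout. WT was below all 6 other libraries (LILRB4+/+ against WT 1.07 ± 0.24, limma adjusted p = 0.0945). Its exons overlap those of Mirt1, a lincRNA of the set on the opposite strand, which was at 0.996 ± 0.157 FPKM in WT and 1.51 ± 0.486 in LILRB4+/+. Gm26809 was at 21.3, 6.18 and 8.34 FPKM in WT, 52.6, 22.9 and 32.1 FPKM in LILRB4+/+, and 23.2, 26.6 and 23.6 FPKM in the knockout (1.66 ± 0.43 against WT, limma adjusted p = 0.123). It overlaps Gm20186, a further lincRNA of the set on the opposite strand, which was at 2.84, 1.27 and 0.694 FPKM in WT and 5.50, 2.65 and 6.51 in LILRB4+/+.

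Gm48065, which lies 69388 bp from Prdm1, had the pattern of AI504432 at a lower level. It was at 1.12, 1.79 and 0.953 FPKM in WT, 2.14, 4.04 and 2.87 FPKM in LILRB4+/+, and 1.15, 1.46 and 1.08 FPKM in the knockout. The LILRB4+/+ libraries lay above all 6 others, but the differences of 0.97 against WT (limma adjusted p = 0.115) and of -0.995 for the knockout against LILRB4+/+ (limma adjusted p = 0.355) did not pass. Its exons overlap Gm35154, a lincRNA just outside the set, on the opposite strand.

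At the other end, 3300005D01Rik was lower in LILRB4+/+, at 8.42, 12.8 and 13.8 FPKM, than in WT, at 17.5, 27.3 and 19.6 FPKM. The 2 groups did not overlap, and the log2 fold change of -0.86 ± 0.23 did not pass (limma adjusted p = 0.127). Gm13056 stood at 22.0 ± 6.04 FPKM in WT and 11.1 ± 4.77 in LILRB4+/+ (-1.03 ± 0.38, limma adjusted p = 0.214), again with no overlap.

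**Figure D3:**
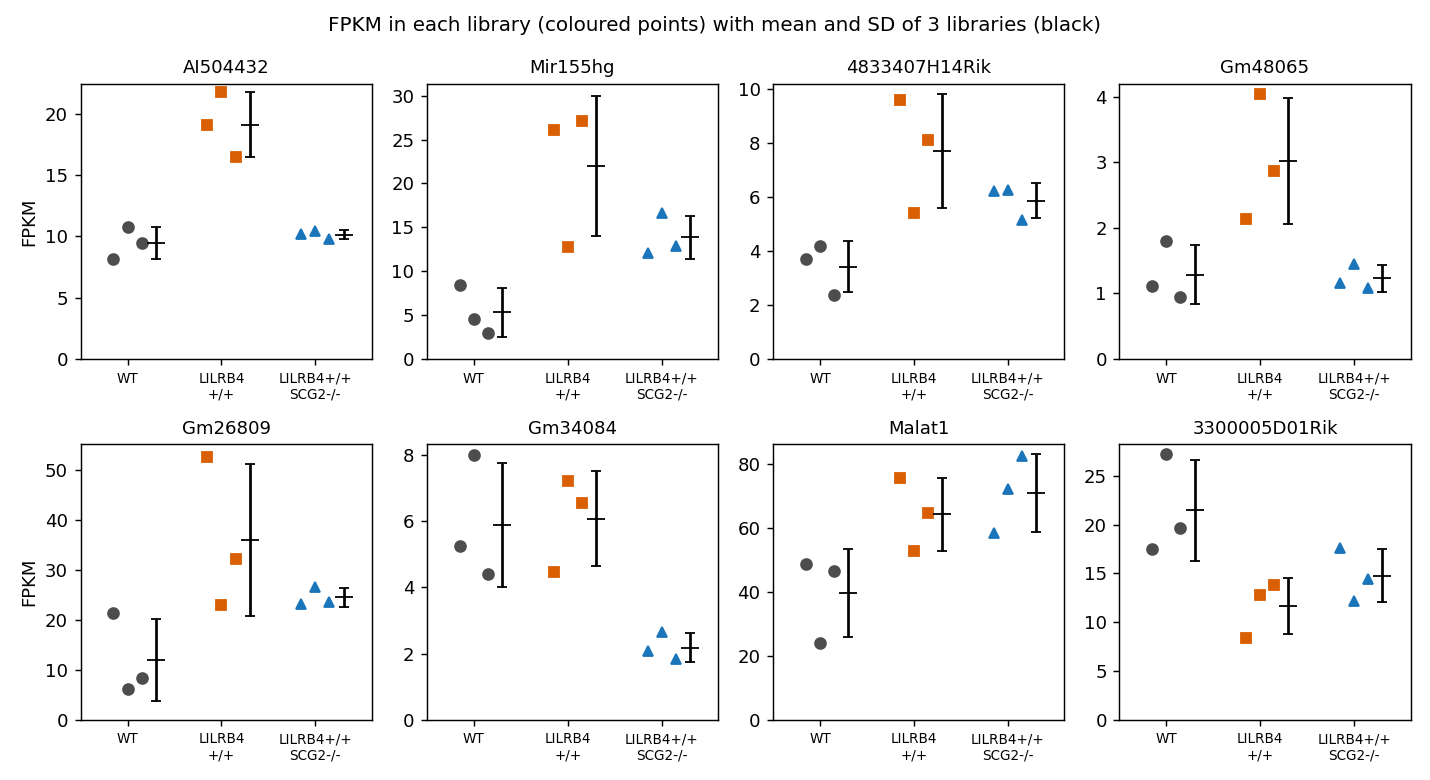
FPKM of 8 lincRNAs in each library (coloured points) with the mean and SD of the 3 libraries of a genotype (black). AI504432 and Gm48065 are highest in the 3 LILRB4+/+ libraries, Gm34084 is lowest in the 3 LILRB4+/+ SCG2-/- libraries, and of these 8 only AI504432 passed limma, in LILRB4+/+ against WT.

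**Figure D4:**
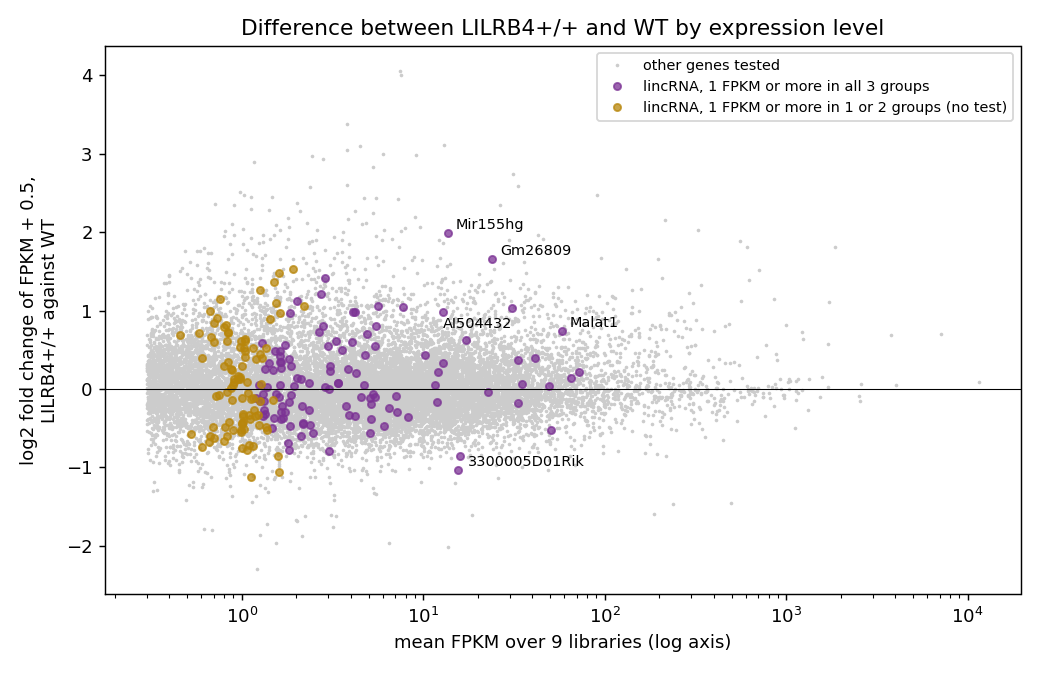
Log2 fold change of LILRB4+/+ against WT (vertical axis) by mean FPKM over 9 libraries (log axis) for the 15670 genes tested, with the 113 testable lincRNAs and the 93 given without a test in colour. The lincRNAs spread around 0 among the other genes, with Mir155hg at 1.99 and Gm26809 at 1.66 at the top of the testable ones.

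The second comparison set LILRB4+/+ SCG2-/- beside LILRB4+/+. None of the 113 passed in either direction by limma, where 0% of the 15670 genes were called higher and 0.0128% lower, or by edgeR, where none of 15743 genes was called. At an unadjusted p under 0.05 in limma, 4 of the 113 were higher (3.54%, beside 2.85% of all genes) and 10 lower (8.85%, beside 5.91%). The libraries did not overlap for 5 higher (beside 6.34% of all genes) and 12 lower (beside 8.74%). DESeq2 called 4 lower, namely AI504432, Gm34084, Gm48065 and Gm19951 (3.57% of 112, beside 0.947% of 14684 genes), and none higher (beside 0.0953%).

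AI504432, at 9.75 to 10.4 FPKM in the knockout and 16.5 to 21.8 in LILRB4+/+, had a log2 fold change of -0.87 ± 0.14. The limma adjusted p was 0.229, the edgeR adjusted p 0.23 and the DESeq2 adjusted p 0.000392, so the call depends on the tool. Against WT the knockout differed by 0.10 ± 0.14. These 2 contrasts and LILRB4+/+ against WT share libraries, so their values are not independent.

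Gm34084 (chr13:44472426-44504548) was lower in the knockout than in both other genotypes. It was at 5.24, 8.01 and 4.42 FPKM in WT, 4.45, 7.20 and 6.55 FPKM in LILRB4+/+, and 2.06, 2.65 and 1.83 FPKM in the knockout, with no overlap. The log2 fold change was -1.28 ± 0.24 against LILRB4+/+ (limma adjusted p = 0.283) and -1.22 ± 0.24 against WT (limma adjusted p = 0.388). Gm19951 was at 7.99, 4.53 and 5.05 FPKM in the knockout and 13.0, 21.5 and 9.07 FPKM in LILRB4+/+ (-1.20 ± 0.34, limma adjusted p = 0.423). The largest positive value belonged to Gm47015, at 3.96, 5.99 and 6.37 FPKM in the knockout and 4.67, 0.855 and 3.22 in LILRB4+/+ (0.98 ± 0.47, limma adjusted p = 0.597), where the groups overlap. Its lowest LILRB4+/+ value was in library 2, which had the fewest T and NK markers (359 CPM). With the marker level as a covariate its log2 fold change was 0.52 (limma adjusted p = 0.303).

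Mir155hg had -0.59 ± 0.38 in this contrast (limma adjusted p = 0.689). The miR-155 targets had 13 negative and 4 positive values with a median of -0.36, and the NF-kB list 15 negative values with a median of -0.27, beside 0.0009 for all genes. None of these genes passed limma or edgeR. The summed monocyte and macrophage markers were 2944 to 5370 CPM in the knockout and 4703 to 7545 CPM in LILRB4+/+. This sum joins genes that went opposite ways. Lyz2 was higher in the knockout, at 252 to 849 FPKM beside 11.4 to 18.6 in LILRB4+/+. Ly6c2, Itgam, Csf1r, Cd14, Fcgr1 and Cd68 were lower in the knockout without overlap, and Ccr2, Adgre1, Ly6c1, Chil3 and Apoe overlapped. Their part in these values was not tested.

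The third comparison, LILRB4+/+ SCG2-/- against WT, gave no call, by limma or edgeR, for any of the 113, and none for any other gene (0% in each direction for both tools). At an unadjusted p under 0.05 in limma, 9 of the 113 were higher (7.96%, beside 6.95% of all genes) and 6 lower (5.31%, beside 5.81%). Without overlap, 16 were higher (14.2%, beside 11% of all genes) and 8 lower (7.08%, beside 10.4%). DESeq2 called 3 of the 113 higher, Mir155hg, Gm47015 and Gm33104 (2.65%, beside 0.514% of 16745 genes), and 1 lower, Gm34084 (0.885%, beside 0.185%). The T and NK markers were at 1306 to 2424 CPM in the knockout and 375 to 1352 CPM in WT. With their level as a covariate in limma, the log2 fold change went from 1.40 to 0.72 for Mir155hg, from 1.59 to 0.59 for Gm47015, from 1.36 to 0.64 for Gm33104 and from -1.22 to -0.97 for Gm34084. None of the 4 passed limma with or without it. Gm33104 falls outside the rule for named genes and was chosen after its values were seen.

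SnoRNA host transcripts, whose introns give rise to guides of ribosomal RNA modification, were listed by name, as Gas5 and the numbered Snhg genes. The listed genes gave no call in any comparison by limma or edgeR. Of 11 tested, 4 belong to the 113: Snhg6, Snhg12, Snhg20 and Snhg18. Snhg20 contains no annotated snoRNA, while Epb41l4aos and 2700038G22Rik contain snoRNAs but are not on this list. Snhg6 stood at 34.8 ± 6.20, 31.6 ± 10.7 and 33.5 ± 6.51 FPKM in WT, LILRB4+/+ and the knockout, and Snhg12 at 21.5 ± 3.19, 21.7 ± 7.46 and 24.7 ± 2.39. Snhg18, which begins 148 bp from Sema5a, was at 1.95, 3.16 and 1.93 FPKM in WT and 0.737, 1.39 and 1.75 in LILRB4+/+, without overlap (-0.68 ± 0.30, limma adjusted p = 0.282). In the knockout against LILRB4+/+ all 11 had positive values, with a median of 0.11 and a smallest limma adjusted p of 0.601. With the T and NK marker level as a covariate 6 were positive and 5 negative, with a median of 0.05.

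Nuclear architectural RNAs and other abundant lncRNAs came next. Malat1, a transcript of nuclear speckles whose exon overlaps Gm37376 on the opposite strand, was at 48.8, 23.9 and 46.5 FPKM in WT, 75.6, 52.7 and 64.8 in LILRB4+/+, and 58.4, 72.3 and 82.6 in the knockout. WT lay below all 6 other libraries, and neither contrast passed (0.74 ± 0.28, limma adjusted p = 0.215, and 0.89 ± 0.28, limma adjusted p = 0.388). Neat1, the scaffold of paraspeckles, was at 18.0, 6.17 and 6.20 FPKM in WT, 13.5, 8.13 and 13.2 in LILRB4+/+, and 20.8, 13.2 and 17.4 in the knockout, and the 3 genotypes overlapped. The 10 paraspeckle proteins had a median fold change of 0.12 in LILRB4+/+ against WT, 7 positive and 3 negative, and none passed. 2900097C17Rik was at 27.3 ± 0.777 FPKM in WT, 35.7 ± 4.82 in LILRB4+/+ and 36.6 ± 4.78 in the knockout, with WT below all 6 others (0.38 ± 0.14, limma adjusted p = 0.216 for LILRB4+/+ against WT).

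Among lncRNAs described in immune or myeloid cells, 13 were tested and 8 of these belong to the 113. In LILRB4+/+ against WT 10 were positive and 3 negative with a median of 0.53, and Mir155hg alone passed edgeR. With the T and NK marker level as a covariate the median was 0.31. AW112010, a transcript reported to be translated in inflammatory cells, varied within each genotype, at 66.8, 55.2 and 40.4 FPKM in WT, 80.0, 33.6 and 74.7 in LILRB4+/+, and 47.0, 114 and 75.8 in the knockout. AU020206 was at 33.1 ± 3.87 FPKM in WT, 44.0 ± 8.66 in LILRB4+/+ and 47.1 ± 4.42 in the knockout (0.40 ± 0.16, limma adjusted p = 0.255). Lncpint, which reached 1 FPKM in LILRB4+/+ alone and is outside that count, was at 0.784, 0.355 and 0.441 FPKM in WT and 1.17, 0.794 and 1.22 in LILRB4+/+.

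Other lincRNAs of this list lie beside genes of known function, and the pairs did not always move together. Ptgs2os2, known as lincRNA-Cox2, is 50816 bp from Ptgs2, the inducible cyclooxygenase. Ptgs2 rose in LILRB4+/+, from 315, 394 and 421 FPKM in WT to 1214, 912 and 1117 (1.52 ± 0.23, limma adjusted p = 0.0451), while Ptgs2os2 was at 3.13, 3.002 and 2.90 FPKM in WT and 4.78, 3.52 and 6.62 in LILRB4+/+ (0.60 ± 0.21, limma adjusted p = 0.2). Gm14005, known as Morrbid, is 15772 bp from Bcl2l11, the pro-death gene it is known to hold down in short-lived myeloid cells. Bcl2l11 rose from 21.3, 17.1 and 17.7 FPKM to 42.9, 32.0 and 38.7 (0.995 ± 0.15, limma adjusted p = 0.0468), and Gm14005 was at 8.29 ± 2.74 FPKM in WT and 7.72 ± 2.01 in LILRB4+/+ (-0.09 ± 0.24, limma adjusted p = 0.873). With each library left out in turn, both coding genes kept their calls in 1 of 9 fits, the fit without LILRB4+/+ library 2, and their limma adjusted p ranged from 0.0338 to 0.197 for Bcl2l11 and from 0.0421 to 0.178 for Ptgs2. Pvt1, beside Myc, was at 4.28 ± 0.463 FPKM in WT and 3.34 ± 0.749 in LILRB4+/+ (-0.33 ± 0.16, limma adjusted p = 0.321).

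Kcna3, a voltage-gated potassium channel of lymphocytes and macrophages, ends 1434 bp from AI504432 on the same strand. It was at 10.7, 4.31 and 12.01 FPKM in WT, 22.0, 17.9 and 16.3 in LILRB4+/+, and 8.80, 13.8 and 10.6 in the knockout. Like AI504432 it was highest in the 3 LILRB4+/+ libraries, and it did not pass (1.13 ± 0.34, limma adjusted p = 0.154, and -0.74 for the knockout against LILRB4+/+, limma adjusted p = 0.576). Mrpl39, the gene nearest to Mir155hg, was at 10.5, 14.1 and 11.99 FPKM in WT and 12.4, 13.4 and 14.3 in LILRB4+/+ (0.14 ± 0.13, limma adjusted p = 0.594).

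Of the 113, 92 had a nearest coding gene that was also tested, and the pair had fold changes of the same sign in 69 of 92 for LILRB4+/+ against WT. Within 10000 bp the count was 39 of 51 (76.5%), and beyond it 30 of 41 (73.2%). Coding genes and their nearest coding gene within 10000 bp shared a sign in 56.8% of 6830 pairs. For the knockout against LILRB4+/+ the shares within 10000 bp were 54.9% for lincRNAs and 55.3% for coding pairs, and for the knockout against WT 51.0% and 54.2%. These shares are descriptions across genes that share libraries.

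**Figure D5:**
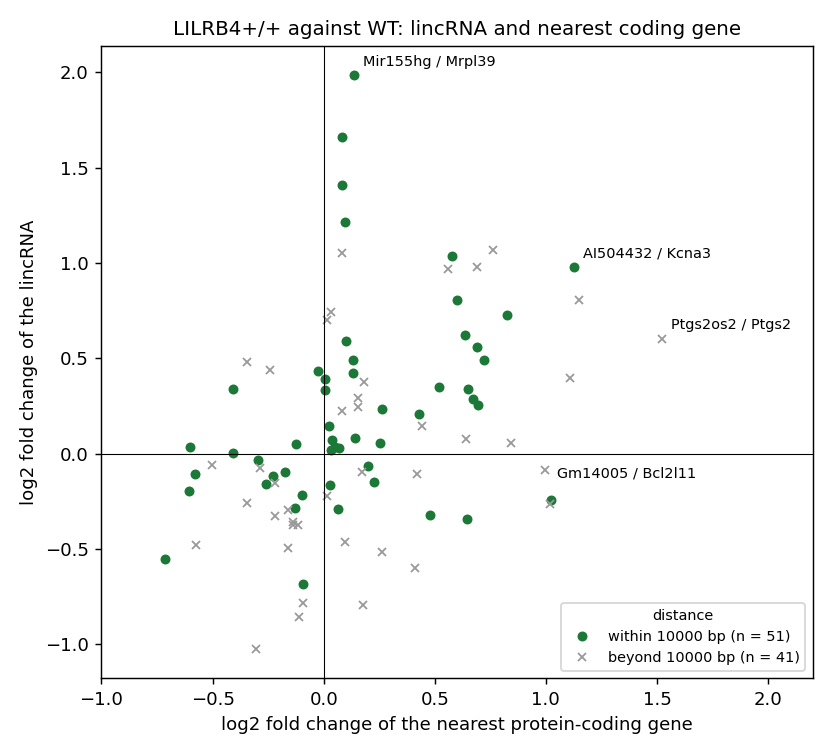
Log2 fold change of LILRB4+/+ against WT for each lincRNA (vertical axis) and its nearest protein-coding gene (horizontal axis), for the 51 pairs of the 113 testable lincRNAs within 10000 bp and the 41 beyond. AI504432 and Kcna3 are both high, at 0.98 and 1.13, and Mir155hg at 1.99 stands over a neighbour at 0.14.

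The 93 lincRNAs that reached 1 FPKM in 1 or 2 genotypes held 17 that did so in WT alone, 19 in LILRB4+/+ alone and 11 in the knockout alone. Gm26799, which begins 91 bp from the DNA repair gene Rad18, was at 1.06, 0.214 and 0.286 FPKM in WT, 2.28, 1.70 and 2.61 in LILRB4+/+, and 2.37, 2.06 and 1.93 in the knockout. A630001O12Rik was at 0.427, 0.533 and 0.356 FPKM in WT, 1.23, 1.49 and 1.06 in LILRB4+/+, and 0.777, 0.455 and 0.279 in the knockout. Its LILRB4+/+ libraries lay above all 6 others, as for AI504432.

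Gm17501, which begins 331 bp from Cyr61, the gene of a protein secreted into the matrix, was at 3.52, 2.21 and 1.46 FPKM in WT, 0.5999, 0.751 and 1.22 in LILRB4+/+, and 1.46, 1.43 and 1.77 in the knockout. Cyr61 was likewise lowest in LILRB4+/+, at 110, 113 and 137 FPKM, beside 307, 178 and 177 in WT and 235, 203 and 284 in the knockout. Summed over 10 genes, the fibroblast markers were at 1829 to 2878 CPM in WT, 1468 to 1988 in LILRB4+/+ and 2043 to 3008 in the knockout, and their part in these values was not tested. 2210011K15Rik was at 2.04, 1.098 and 2.29 FPKM in WT and 0.280, 0.726 and 0.651 in LILRB4+/+.

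The lowest of these rested on few counts. Gm47675 had 0, 11 and 5 counts in WT, 6, 17 and 1 in LILRB4+/+, and none in the 3 knockout libraries. Gm43464 had 5, 15 and 3 counts in WT and 0, 0 and 1 in the knockout. With so few counts, a level listed at 0 says only that the transcript was not detected at this depth.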

How the data were processed

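RNA-seq libraries of sorted tumour M-MDSCs, 3 per genotype, were compared. The authors deposited a table of FPKM for 54532 genes and a table of counts for 9877 genes. None of the 206 lincRNAs stands in the deposited count table, so FPKM was used. HISAT2 2.0.5 and featureCounts 1.5.0-p3 are named in the submitters' processing notes, and the build is not given in the sources used here, nor are the annotation and the strand setting of the counting. Of the deposited gene IDs found in GENCODE M21, 98.3% had equal coordinates (GRCm38).

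FPKM times gene length gave whole counts (tolerance 0.01) for 100% of values in each library. Against the deposited counts, 56 of 88893 values differed. The main test was limma 3.58.1 (R 4.3.3, trend and robust) on log2(FPKM + 0.5) for 15670 genes with a mean of 0.3 FPKM or more, with all 9 libraries in 1 fit, 6 residual degrees of freedom and Benjamini-Hochberg adjustment at 0.05. A fold change on this scale understates that of low genes. edgeR 4.0.16 (quasi-likelihood, TMM, minimum count 10) and DESeq2 1.42.0 on recovered counts were alternatives. The scripts were tested on simulated counts. CPM was computed from recovered counts.

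Named lincRNAs were Mir155hg, AI504432, those in fixed lists, the 10 most abundant, those called, the 5 largest changes per direction and contrast, the nearest to the limit, the 3 most like Mir155hg and AI504432, and nearest coding genes. Members, lists and tests were chosen with earlier results of these data known. The T and NK covariate and the edgeR fit with a block were added after seeing the data.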

Additional observations from a re-analysis of the deposited data

How the results depend on the processing

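All counts of lincRNAs called are over the 113 at 1 FPKM or more in every genotype. In LILRB4+/+ against WT the count called higher, 1 in the fit reported, was 0 with no filter on low values, 2 in edgeR, 10 in DESeq2, 0 when only the 2 groups compared were fitted and 2 with the T and NK marker level as covariate, the last chosen after seeing the data. Leaving out each library gave 0 to 4. The 4 without LILRB4+/+ library 2 were Mir155hg, AI504432, 4833407H14Rik and Gm33104. Called lower, 0 in the fit reported, was 1 in DESeq2. Over all genes, 40 were called in the fit reported, 3 with no filter, 100 at a mean FPKM of 1 or more, 137 in edgeR, 907 in DESeq2, 0 with only the 2 groups, 63 with the T and NK covariate and 0 to 118 with a library left out. For the knockout against LILRB4+/+, no lincRNA was called higher in any of these fits and DESeq2 alone called lincRNAs lower (4). All genes called, 2 in the fit reported, were 0 at a pseudocount of 0.1 or 1, with no filter, at a mean FPKM of 1 or more and in edgeR, 153 in DESeq2, 1 with only the 2 groups and 0 to 14 with a library left out. For the knockout against WT, DESeq2 called 3 lincRNAs higher and 1 lower and 117 genes in all, the T and NK covariate called 2 genes and no lincRNA, and every count with a library left out was 0.

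The labels do not say whether the replicate number pairs the libraries, and deviations from the genotype means did not settle it. Same-numbered libraries correlated at 0.51, 0.48 and -0.25 between WT and LILRB4+/+, where those of different number ranged from -0.56 to 0.24. Between WT and the knockout the values were -0.22, -0.07 and 0.15, beside -0.35 to 0.35 for different numbers. Between LILRB4+/+ and the knockout they were -0.40, -0.17 and -0.12, beside -0.16 to 0.29. With the replicate block in limma, 0 lincRNAs and 0 genes were called in LILRB4+/+ against WT and 0 genes in the knockout against LILRB4+/+. edgeR with a replicate block, added after seeing the data, called 0 lincRNAs and 1 gene in LILRB4+/+ against WT and 0 genes in the knockout against LILRB4+/+. The adjusted p of AI504432 was 0.107 with the block in limma and 0.0599 in edgeR. Over the named lincRNAs and all alternatives, 0 values reversed after a call, 2349 kept their side of the threshold or moved by less than the spread, 90 moved, 15 passed and 12 no longer did. Counts limit the lowest lincRNAs, with a median of 13.1 per library for the 45 below 1 FPKM.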
